A study of Mus musculus with 6 samples.

Results

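The serpins are a superfamily of protease inhibitors. Here 61 protein-coding genes whose symbol starts with Serpin were followed in mouse hepatocytes with Bim knocked out and in wild-type hepatocytes. They were found among the 48353 genes of the deposited annotation by mapping each Ensembl gene identifier to its mouse symbol. Of 68 genes with such a symbol, 7 were left out because GENCODE M21 does not list them as protein-coding. The 61 genes hold 165 transcripts, whose estimated reads and RPKM (reads scaled to transcript length and library size) were summed per gene and library.

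Polyadenylated RNA was sequenced single-end from 3 knock-out and 3 wild-type hepatocyte samples of the C57BL/6 strain, isolated by perfusing the liver with collagenase. The knock-out came from a cross of Bim(lox/lox) with Alb-Cre mice, in which the albumin promoter drives Cre recombinase in hepatocytes. The labels call the other group wild-type and do not say whether it carried lox sites or Cre, nor which exons were removed. The series asks what BIM, a pro-apoptotic protein of the BCL-2 family encoded by Bcl2l11, does downstream of the kinase JNK in the obese liver. Its protocol describes male mice on chow, or on a high-fat diet started at 8 to 10 weeks of age and given for 14 to 20 weeks. Which sample had which diet is not stated. The labels do not tie samples to separate mice either, and the p-values below thus describe the scatter of these 6 libraries, part of which may be technical.

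A serpin works as a suicide substrate. The target protease cuts an exposed stretch near the end of the serpin, the reactive centre loop, whereupon the serpin changes its fold and holds the protease in an inactive complex. The liver secretes many of the serpins of blood plasma, among them antitrypsin (Serpina1), antithrombin (Serpinc1), heparin cofactor II (Serpind1), antiplasmin (Serpinf2) and C1 inhibitor (Serping1). The clade B serpins mostly stay inside cells. In the mouse several of these genes were duplicated into clusters of near-identical paralogs, and in those the loop is the stretch that differs most.

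The loops of the most abundant clade A paralogs are printed first, because they are stretches in which closely related genes differ. Each is read from the GENCODE M21 transcript that carried reads (GRCm38 genome, chromosome 12), runs 5′ to 3′ on the coding strand and lies in exon 5. It starts at the hinge of the loop and ends at the conserved proline and phenylalanine that follow it. In the 5 antitrypsin genes, all on the minus strand, the stretch covers 81 bases (codons 363 to 389), and capitals mark the 18 positions at which at least 1 of the 5 differs.
Serpina1a (chr12:103853750-103853830): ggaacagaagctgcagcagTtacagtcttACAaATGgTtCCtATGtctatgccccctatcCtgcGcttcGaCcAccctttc
Serpina1b (chr12:103728317-103728397): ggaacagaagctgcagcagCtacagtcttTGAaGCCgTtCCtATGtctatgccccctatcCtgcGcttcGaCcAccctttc
Serpina1c (chr12:103895087-103895167): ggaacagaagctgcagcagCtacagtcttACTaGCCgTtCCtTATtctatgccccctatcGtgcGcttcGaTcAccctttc
Serpina1d (chr12:103763755-103763835): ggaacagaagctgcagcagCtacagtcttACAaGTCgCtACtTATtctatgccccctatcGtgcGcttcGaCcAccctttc
Serpina1e (chr12:103947093-103947173): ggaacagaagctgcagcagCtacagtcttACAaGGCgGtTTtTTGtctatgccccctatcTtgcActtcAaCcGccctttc

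Any 2 of these antitrypsin loops differed at 5 to 12 of 81 bases. Serpina1c and Serpina1d were the closest pair, with 5 differences, and Serpina1e differed from each of the others at 10 to 12. Over the whole coding sequence of 1242 bases, the 5 genes were 96.3% to 98.5% identical to each other, with Serpina1a and Serpina1c the closest. The pseudogene Gm8893, which lies in the same cluster and had reads assigned to it, was 98.8% identical to Serpina1a.

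The 3 expressed genes related to antichymotrypsin lie on the plus strand of the same chromosome, and capitals mark the stretch from the first to the last base at which they differ.
Serpina3k (chr12:104345269-104345352): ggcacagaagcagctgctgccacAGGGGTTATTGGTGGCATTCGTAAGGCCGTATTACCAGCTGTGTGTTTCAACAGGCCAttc
Serpina3m (chr12:104393769-104393858): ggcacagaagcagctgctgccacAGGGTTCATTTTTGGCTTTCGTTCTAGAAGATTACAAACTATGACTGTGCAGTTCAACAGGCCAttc
Serpina3n (chr12:104413448-104413537): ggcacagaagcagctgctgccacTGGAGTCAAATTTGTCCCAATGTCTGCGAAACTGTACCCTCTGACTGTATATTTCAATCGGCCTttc

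The loop stretch of Serpina3k has 84 bases, against 90 in Serpina3m and Serpina3n, which differ from each other at 28 of them. Coding identity was 91.0% between Serpina3k and Serpina3m, 82.6% between Serpina3k and Serpina3n, and 85.2% between Serpina3m and Serpina3n. Reads from outside the loop may thus fit more than 1 gene.

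How much of each transcript is shared was counted in windows of 50 bases cut from the transcript of each gene with the highest mean of reads over the libraries, matched on both strands to the M21 transcripts of every other gene. The sequencing read length was among the items not given in the sources used here. Of the windows of Serpina1a, 80.9% were also found in another gene, and of those of Serpina1c, 79.3%. The shares were 50.9% for Serpina1d, 47.1% for Serpina1b, 35.6% for Serpina1e and 59.0% for Gm8893. Serpina1a and Serpina1c alone shared 908 windows. In the Serpina3 cluster the shares were lower, at 19.1% for Serpina3m, 14.0% for Serpina3k and 6.90% for Serpina3n. Serpinf1, Serpinf2, Serping1, Serpina5, Serpina7 and Serpina12 shared no window with another gene. With windows of 100 bases the shares fell to 61.0% for Serpina1a, 14.8% for Serpina1e and 6.09% for Serpina3m.

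**Figure D1:**
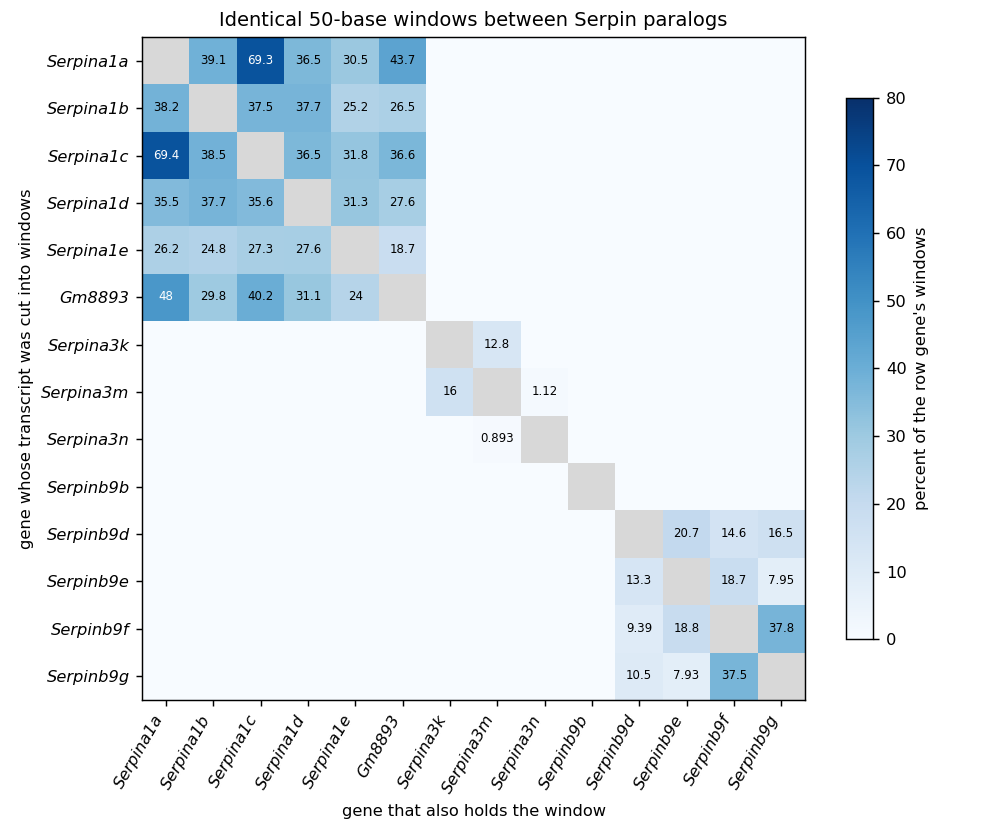
Percent of the 50-base windows of each row gene that occur unchanged in the column gene. Shown are the paralogs of the Serpina1, Serpina3 and Serpinb9 clusters with reads in every library, and the pseudogene Gm8893. Darker blue is a higher percent, white is 0 and grey is the gene itself. Sharing stays within each cluster, reaches 69.3% of the windows of Serpina1a in Serpina1c, and is 12.8% of the windows of Serpina3k in Serpina3m.

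The libraries held 25335211 to 31130519 estimated reads, and 10486 to 11255 genes were above 0. Bcl2l11 was listed at 0 reads in the 3 knock-out libraries and in wild-type 1, and had 680 reads in wild-type 2 and 478 in wild-type 3. An exact 0 can be an estimate that was not made. Among well-covered loci (median over 100 reads), those with 2 or more transcripts were exactly 0 in 18.0% of library values, and those with 1 transcript in 0.0156%. All 6 libraries went against the protocol's male mice: Xist, the RNA of the inactive X chromosome of females, had 25083 to 38904 reads, and all 4 Y-linked genes looked up (Ddx3y, Eif2s3y, Kdm5d and Uty) were at 0. Of 11 hepatocyte markers, 8 were above 0 in every library, Alb at 15024 to 35550 RPKM, while Pck1 and Tat were at 0. Wild-type 1 stood apart in 14 macrophage markers, which summed to 4527 RPKM there and to 79.1 to 141 elsewhere. The sum of 17 interferon response genes set knock-out 1 and wild-type 2 apart, at 5028 and 5042 RPKM. In the other 4 it was 572 to 986. Some of these genes went otherwise. Irf7 was highest in knock-out 2 (296 RPKM) and at 0 in wild-type 2. Cxcl9 too was highest in knock-out 2 (37.5 RPKM), and Cxcl10 and Mx1 were at 0 in knock-out 1. The macrophage receptor Fcgr1 was at 0. Of the defining markers of other cells, 6 of 9 for endothelium and 11 of 12 for stellate cells were at 0 throughout. So were 7 of 8 for neutrophils and monocytes, 7 of 9 for lymphocytes and 5 of 6 for red cells. Of 6 biliary markers, 3 were at 0 throughout, while Sox9 had 5.68 to 10.8 RPKM. Spp1 was at 0 in knock-out 1 and at 112 to 504 RPKM elsewhere. The endothelial markers Cdh5 (25.7 RPKM), Stab2 (5.77) and Ptprb (2.64) and the neutrophil marker Csf3r (13.4) had reads in wild-type 1 alone. In such bulk samples fewer cells of a type and less RNA per cell cannot be told apart.

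Serpin transcripts took about the same part of every library but 1. They held 0.989%, 0.949% and 0.922% of the summed RPKM of knock-out 1, 2 and 3, and 0.929%, 1.77% and 0.920% of wild-type 1, 2 and 3 (the order of libraries used from here on). Wild-type 2 was the high one, with 519620 serpin reads against 251653 to 289004 in the other 5. No test was made of this sum over the members.

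Of the 61 genes, 18 were above 0 in all 6 libraries, 12 in some and 31 in none, and each library had 21 to 26 of them above 0. The number of transcripts went along with the zeros. Among the 13 genes with reads and 1 transcript, 3 of 78 library values were 0, and among the 17 with reads and 2 or more transcripts, 38 of 102 were. Of all 41 members with 2 or more transcripts, 24 were at 0 in all 6 libraries, against 7 of the 20 with 1 transcript. Genes with an exact 0 are therefore given by the value of each library, without a mean or a fold.

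The secreted clade A carried most of the signal. It had 24 genes, of which 10 were above 0 everywhere, 4 in some libraries and 10 in none, and it held 81.3%, 93.3% and 83.3% of the serpin RPKM in the knock-out and 90.5%, 80.4% and 85.1% in the wild-type libraries. Clade B, with 26 genes, held 3.18% to 6.55%. Of its genes 7 were above 0 everywhere, 3 in some libraries and 16 in none. Antithrombin, the single gene of clade C, held 0.951% to 1.58%. In estimated reads, which are not scaled to length, clade A held 78.4% to 90.2%, clade B 2.88% to 5.32% and antithrombin 2.90% to 4.62%. The reads of antithrombin were assigned to a long transcript, of 4970 bases. In wild-type 2 clade B was 6.17% in RPKM and 2.88% in reads. None of the 10 genes of clades D to I was above 0 in all 6 libraries. Those of clade F held between 0, in knock-out 2, and 8.30%, in knock-out 1, and the 3 genes of clades H and I were at 0. An exact 0, which can be an estimate that was not made, raises the shares of the other clades. The share of clade A was highest in knock-out 2, where clade F was at 0.

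**Figure D2:**
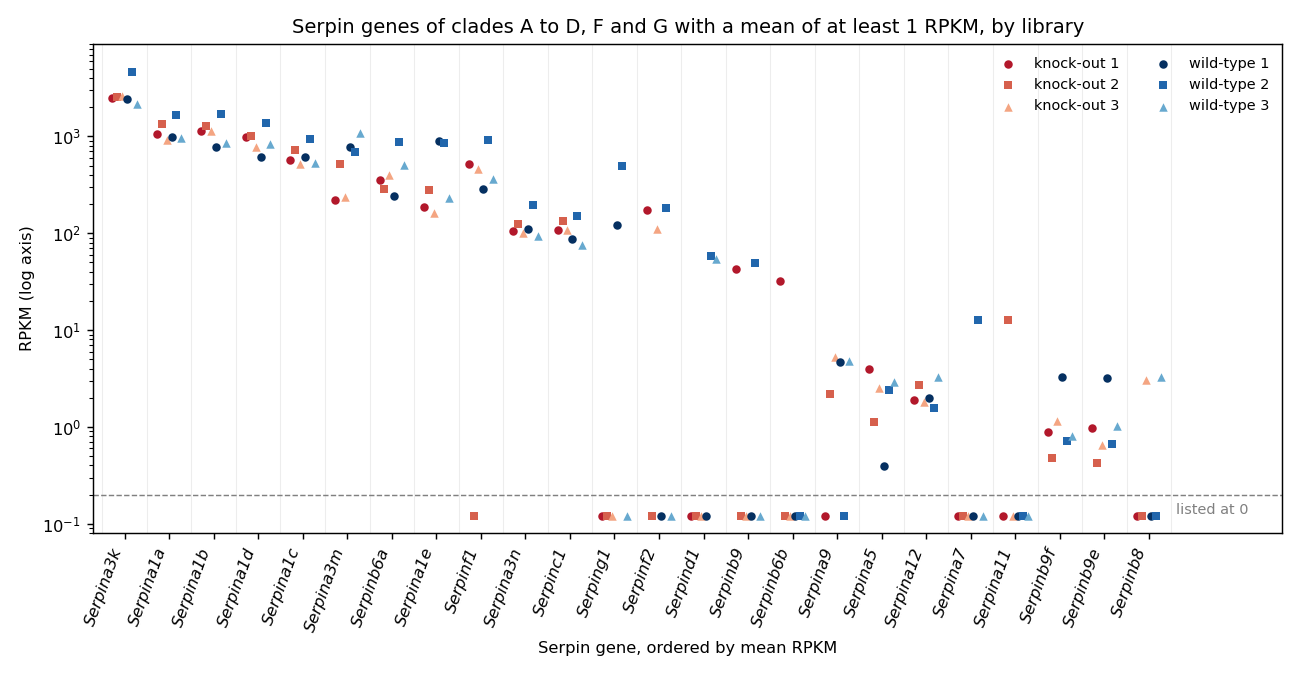
RPKM on a log axis of 24 serpin genes of clades A to D, F and G that average 1 RPKM or more, ordered by that average, with 1 point per library (red circle, square and triangle for knock-out 1 to 3, blue for wild-type 1 to 3) and values listed at 0 drawn under the dashed line. Serpina3k is the highest, at 2157 to 4585 RPKM, Serpina3m is the gene whose groups do not overlap, and from Serping1 to Serpinb6b each gene is at 0 in at least 3 libraries.

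Antitrypsin is best known as an inhibitor of neutrophil elastase, and the mouse paralogs differ in which proteases they inhibit. Serpina1a had 1069, 1330 and 915 RPKM in the knock-out and 981, 1683 and 961 in the wild-type libraries. Serpina1b followed at 1149, 1276 and 1125 against 770, 1687 and 857 RPKM. Serpina1d had 975, 1010 and 776 against 618, 1361 and 829 RPKM. In all 3 the highest library was wild-type 2 and the groups overlapped. Serpina1c was lower, at 571, 722 and 514 RPKM in the knock-out and 615, 934 and 527 in the wild-type. It shares most of its windows with Serpina1a, and the 2 genes ran in parallel, with wild-type 2 the highest and knock-out 3 the lowest library of both.

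Serpina1e, the paralog whose loop differs most, also varied most between libraries, its highest value being 5.57 times its lowest, against 1.82 to 2.20 times in the other 4. It had 186, 276 and 161 RPKM in the knock-out libraries and 894, 853 and 231 in the wild-type libraries. Wild-type 1 and 2 were thus more than 3 times as high as any knock-out library, while wild-type 3 lay within the knock-out range. The mean was 208 ± 60.9 RPKM (SD, n = 3) in the knock-out and 660 ± 372 (SD, n = 3) in the wild-type. On the log2(RPKM + 1) scale the knock-out minus wild-type difference was -1.47 (SE 0.57, 95% interval -2.86 to -0.08). The exact two-sided permutation p was 0.2, where 3 against 3 libraries cannot give less than 0.1, and the limma adjusted p was 0.996. In wild-type 1 part of the level came from a second transcript of 1295 bases, with 12773 reads, that had none in the other 5 libraries. With the transcript of the highest mean alone, the difference was -1.11.

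Serpina1e took 4.51%, 5.85% and 4.37% of the reads of the antitrypsin genes and Gm8893 in the knock-out and 20.97%, 12.5% and 6.56% in the wild-type. The share of Serpina1a stayed between 21.3% and 24.3% in the 6 libraries and that of Serpina1c between 11.8% and 13.7%. Serpina1b moved the other way, with its lowest share of 17.6% in wild-type 1, and so did Serpina1d, at 14.1% there. The split of reads between these paralogs is an estimate, so the cluster was also compared as a sum. The Serpina1 genes summed to 3950, 4615 and 3491 RPKM in the knock-out and 3878, 6518 and 3405 in the wild-type. The groups overlapped, with means of 4019 ± 565 and 4601 ± 1677 RPKM (SD, n = 3) and a difference of -0.15 on the log2 scale (exact permutation p = 0.9). Without wild-type 2 the difference became 0.14.

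**Figure D3:**
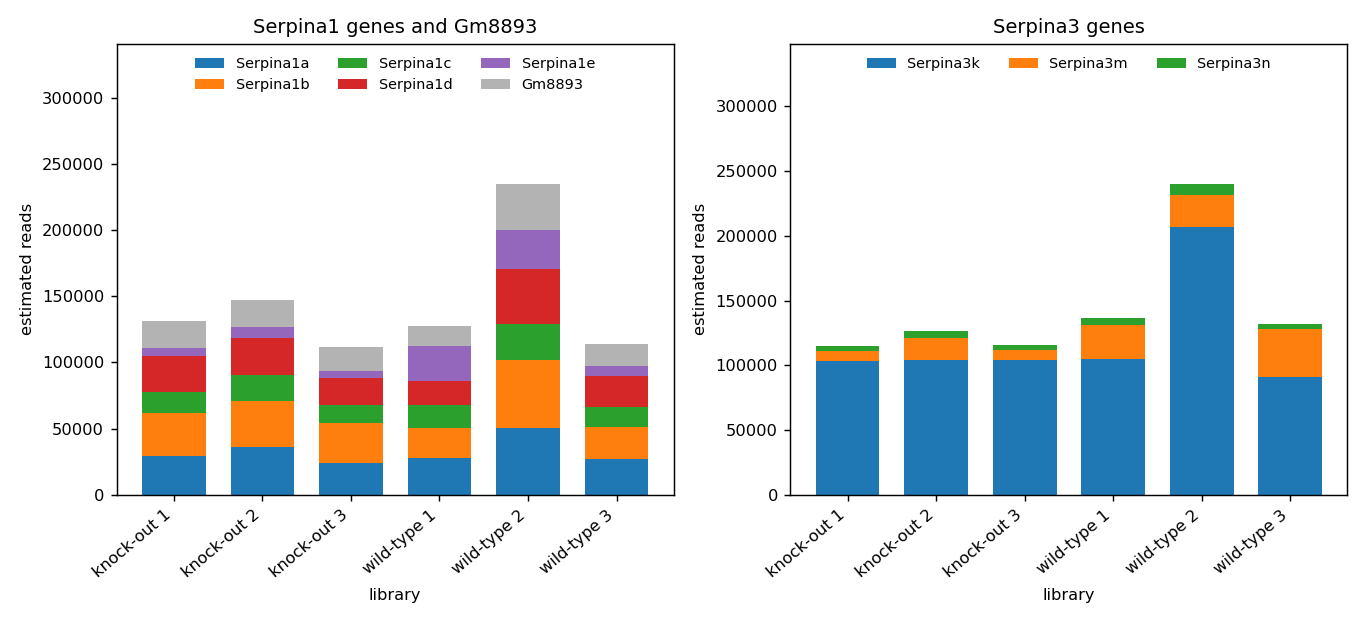
Estimated reads per library (stacked bars from 0) of the Serpina1 genes with Gm8893 (left) and of Serpina3k, Serpina3m and Serpina3n (right). Wild-type 2 has the tallest bar in both panels, the purple Serpina1e part is widest in wild-type 1 and 2, and the orange Serpina3m part is widest in wild-type 3, at 36759 reads.

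Serpina3k was the most abundant serpin. It is one of the mouse relatives of antichymotrypsin, known as contrapsin, and had 2485, 2558 and 2638 RPKM in the knock-out and 2431, 4585 and 2157 in the wild-type libraries. The 3 knock-out values lay within the wild-type range, and the difference was -0.17 (SE 0.30). Serpina3n, an inhibitor of granzyme B and an acute phase gene, had 105, 125 and 101 against 110, 194 and 93.1 RPKM. Its groups also overlapped (difference -0.19, SE 0.29), and here too wild-type 2 was the highest library.

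Serpina3m was the gene whose groups stood apart. It had 221, 520 and 237 RPKM in the knock-out and 768, 685 and 1080 in the wild-type libraries, so that each knock-out library was below each wild-type library, in RPKM and in reads. The mean was 326 ± 168 RPKM (SD, n = 3) against 844 ± 208 (SD, n = 3). The difference was -1.46 (SE 0.38, 95% interval -2.38 to -0.53) on the log2(RPKM + 1) scale, with an unadjusted p of 0.00848 and an adjusted p of 0.996 in limma over 5538 genes. Its exact permutation p was 0.1, the smallest this design allows. Leaving out 1 library at a time gave -1.85 to -1.23. No cause of the difference was tested.

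Serpina3m shares a locus with Serpina3k. The transcript of Serpina3m that carried its reads has 1658 bases and starts at the same base as Serpina3k, at position 104338486, and 12.8% of the windows of Serpina3k occur in it. Of the reads of both genes, Serpina3m took 6.69%, 14.1% and 6.76% in the knock-out and 20.3%, 10.7% and 28.8% in the wild-type libraries. The share in wild-type 2 lay below that in knock-out 2, so the groups overlapped in the share although they did not in the level. As a sum the 2 genes had 2706, 3078 and 2875 RPKM in the knock-out and 3199, 5270 and 3236 in the wild-type, a difference of -0.40 (exact permutation p = 0.1). The sum over all 10 Serpina3 genes was 2997 ± 197 against 4034 ± 1238 RPKM (SD, n = 3), a difference of -0.39 (exact permutation p = 0.1, or 0.5 after Benjamini-Hochberg adjustment over 5 groups of paralogs). Without wild-type 2 it was -0.15. In both sums the groups did not overlap.

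The remaining clade A genes were low or patchy. Serpina5, the protein C inhibitor, had 3.98, 1.12 and 2.50 RPKM in the knock-out and 0.397, 2.41 and 2.88 in the wild-type. Serpina12 (vaspin), better known from fat tissue, had 1.88, 2.68 and 1.80 against 1.99, 1.58 and 3.30 RPKM. The groups overlapped for both. Serpina9 was at 0, 2.19 and 5.27 RPKM in the knock-out and at 4.70, 0 and 4.75 in the wild-type. Serpina7, the thyroxine-binding globulin, which transports hormone and inhibits no protease, was listed at 12.9 RPKM in wild-type 2 and at 0 elsewhere. Serpina11 was listed at 12.7 RPKM in knock-out 2 only. Serpina3c had at most 4 reads in a library. Serpina6, the corticosteroid-binding globulin, and Serpina10, the inhibitor of coagulation factor X that works with protein Z, are known liver products and were listed at 0 in all 6 libraries. Each has 2 transcripts in the files.

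Antithrombin (Serpinc1), the main inhibitor of thrombin and factor X, had 107, 133 and 107 RPKM in the knock-out and 87.5, 150 and 75.4 in the wild-type libraries. The groups overlapped, at 116 ± 14.9 against 104 ± 40.1 RPKM (SD, n = 3), and the difference was 0.21 (SE 0.28, 95% interval -0.48 to 0.89). All its reads were assigned to 1 transcript of 4970 bases, of whose windows 58.8% also occur in Zbtb37, a gene on the opposite strand. Since the use of strand in counting was not given in the sources used here, reads of the 2 genes may not be separable. Zbtb37 itself had 744 to 1236 reads against 7690 to 16333 of Serpinc1.

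Heparin cofactor II (Serpind1), a second inhibitor of thrombin, had reads in 2 wild-type libraries, 2638 in wild-type 2 and 2278 in wild-type 3, and was listed at 0 in the other 4. C1 inhibitor (Serping1), which blocks the first proteases of complement and plasma kallikrein, had 4554 reads in wild-type 1 and 9678 in wild-type 2, and none in the other 4. The reads went to a transcript of 1768 bases in the first of these and to one of 903 bases in the second. All 3 knock-out libraries thus read 0 for both genes, as did 1 wild-type library in each case. With the zeros kept as values in the limma fit, neither gene was called.

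The pair of clade F genes are neighbours on chromosome 11. Serpinf1, which encodes the secreted factor PEDF and is no inhibitor, had 517, 0 and 458 RPKM in the knock-out and 289, 926 and 364 in the wild-type. Its reads lay on a transcript of 882 bases except in wild-type 2, where all 12264 lay on one of 605 bases. Antiplasmin (Serpinf2), the main inhibitor of plasmin, had 173, 0 and 111 RPKM against 0, 183 and 0. Both genes were listed at 0 in knock-out 2. Serpinh1, the collagen chaperone Hsp47, was at 0 in all libraries. At 0 too were 11 of 12 markers of stellate cells and fibroblasts, the cells best known for making Hsp47. Serpinh1 has 7 transcripts, however, and an exact 0 can be an estimate that was not made. The part of those cells in this value was not tested. The clade I genes Serpini1 (neuroserpin) and Serpini2 were also at 0, as were Serpine2 and Serpine3 of clade E.

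**Figure D4:**
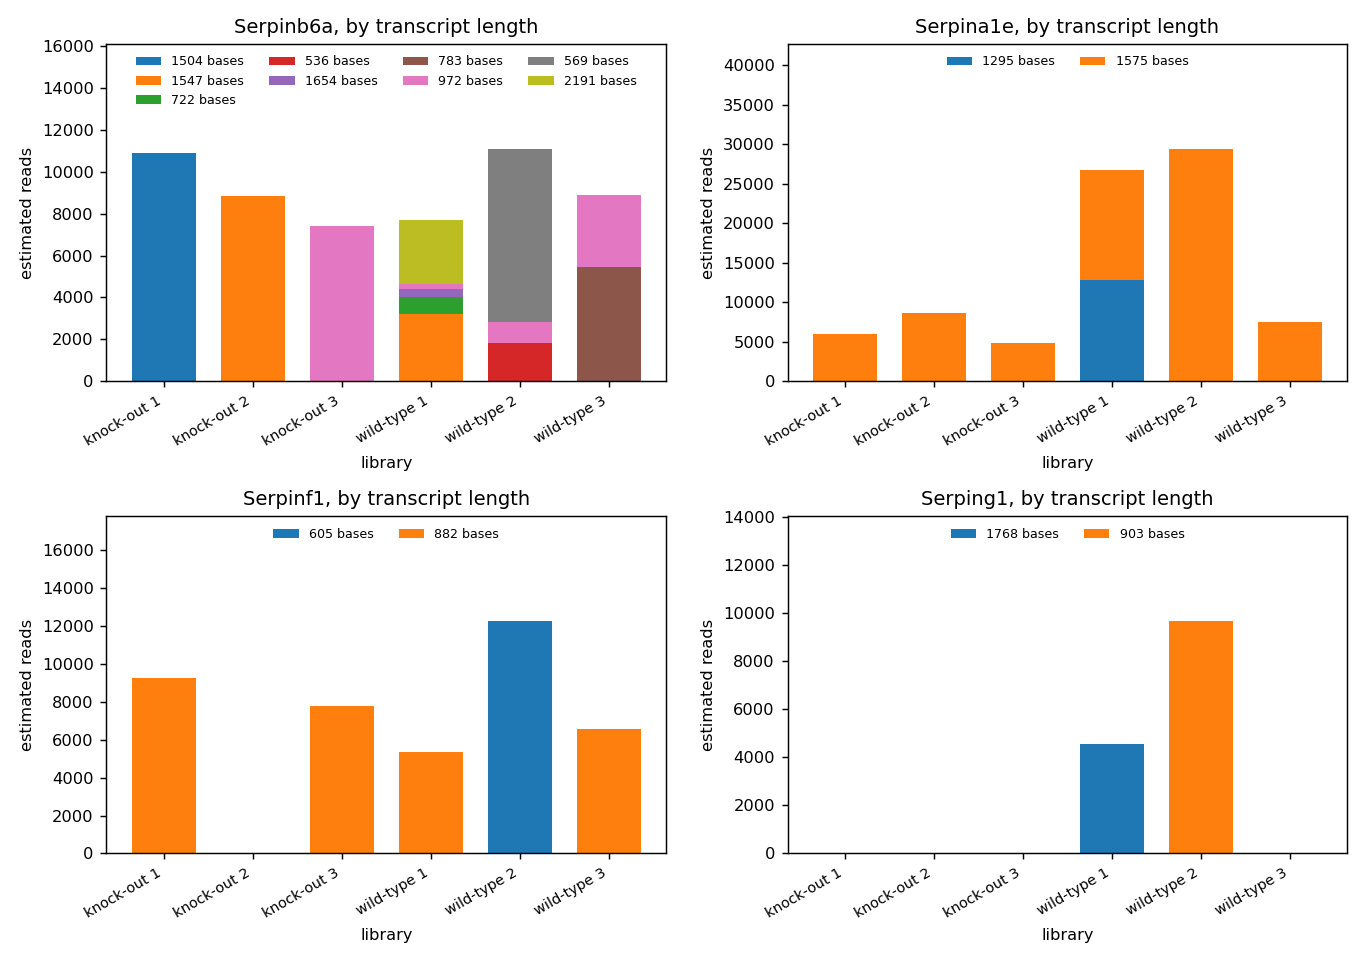
Estimated reads per library of Serpinb6a, Serpina1e, Serpinf1 and Serping1, stacked from 0 and coloured by the length in bases of the transcript to which they were assigned. The reads of Serpinb6a sum to 7409 to 11108 per library but lie on different transcripts in most libraries, Serpina1e has a part on a 1295-base transcript in wild-type 1 alone, and the other 2 genes change transcript between libraries or have no reads.

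Among the intracellular serpins Serpinb6a, an inhibitor of cathepsin G and trypsin-like proteases, was the most abundant. It had 358, 288 and 396 RPKM in the knock-out and 242, 868 and 512 in the wild-type libraries, so the highest library was 3.58 times the lowest. In reads that ratio was 1.50, with 10886, 8830 and 7409 against 7712, 11108 and 8901. The reads lay on 9 of 17 transcripts. In knock-out 1 they all lay on one of 1504 bases, and in wild-type 2 mostly on one of 569 bases. The difference was -0.47 (SE 0.46) in RPKM and 0.074 in reads scaled to library size alone, opposite in sign and neither past the test. The transcript with the highest mean of reads, of 972 bases, carried 0, 0 and 7409 reads in the knock-out and 243, 982 and 3429 in the wild-type, and 77.5% of its windows occur in Nqo2 on the opposite strand, a gene with 1944 to 3190 reads. The windows of the other 8 transcripts were not searched. Serpinb6b had 1419 reads in knock-out 1 and none elsewhere.

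Serpinb9 protects cells from granzyme B, and its reads came from 2 libraries, 2910 in knock-out 1 and 3708 in wild-type 2. The sum of the interferon response genes was high in the same 2 libraries. Among them Isg15 was at 505 and 508 RPKM there, against 39.5 to 108 in the others. Not every gene of that list followed, since Irf7 was at 0 in wild-type 2, and Cxcl10 and Mx1 in knock-out 1. The part of the interferon response in the Serpinb9 values was not tested.

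Its paralogs with reads in all libraries were low. Serpinb9b, at 30, 8 and 12 reads in the knock-out and 14, 32 and 24 in the wild-type, was highest in the same 2 libraries as Serpinb9. The next 4 were highest in another library. Serpinb9e had 38, 16 and 24 reads in the knock-out and 130, 28 and 40 in the wild-type libraries. Serpinb9f had 34, 18 and 42 against 132, 30 and 32 reads, and Serpinb9g had 34, 22 and 32 against 82, 36 and 26. These 3 were highest in wild-type 1, the library with the high macrophage markers, and so was Serpinb9d, with 22 reads against 4 to 12. The macrophage gene C1qa stood at 171 RPKM in wild-type 1 and at 5.62 to 14.4 elsewhere. The part of those cells in the reads of these paralogs was not tested. The paralogs also share sequence, since 78.7% of the windows of Serpinb9f and 54.8% of those of Serpinb9g recur in other genes, and their coding sequences are 98.7% identical. Most of the shared windows of Serpinb9f lie in Gm11397, a protein-coding gene of the same cluster with 8 to 46 reads, also highest in wild-type 1.

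Serpinb8 had 178 reads in knock-out 3 and 200 in wild-type 3. Serpinb1b stayed at 4 to 18 reads per library. The other 16 clade B genes, among them Serpinb1a, an inhibitor of neutrophil proteases, Serpinb2 (plasminogen activator inhibitor 2) and the 4 Serpinb3 genes, were at 0 in every library. As sums over paralogs, the Serpinb1, Serpinb6 and Serpinb9 genes gave exact permutation p-values of 0.7, 0.5 and 0.5.

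The comparison of knock-out and wild-type over all genes asked which serpins differ with the deletion of Bim, and none was called. Of the 61 genes, 14 were above 0 in every library, averaged 1 RPKM or more and entered the limma fit on log2(RPKM + 1). None of the 14 passed a Benjamini-Hochberg adjusted p of 0.05 over the 5538 genes tested (adjusted p 0.996 to 0.998), nor did any other gene, so that 0% of all genes were called. At an unadjusted p below 0.05 stood 2 serpins, Serpina3m and Serpina1e, against 2.35% of all genes, and both were lower in the knock-out, against 1.03% of all genes. In 1 of the 14, Serpina3m, the knock-out lay wholly below the wild-type, against 2.96% of all genes. In none did it lie wholly above, against 2.98%. The fit with voom weights on the estimated reads also called 0.

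The size of what could be missed differs between genes. The difference was negative in 10 of the 14 serpins and positive in 4, against 49.8% negative among all genes, and its median was -0.17, against 0.00129 for all genes. Without wild-type 2 it was negative in 6 and positive in 8, with a median of 0.09 (all genes -0.04, 58.6% negative), so the lean of the family rests on that library. In 8 of the 14 the highest library was wild-type 2, which was the highest for 8.79% of all genes, and in 3 it was wild-type 1, against 29.7%. The highest library was 2.20 times the lowest in the median serpin, against 1.56 times in the median gene. For 8 of the 14 serpins, and for 78.6% of all genes, the whole 95% interval stayed inside a 2-fold change in either direction. For Serpina1c, as an example, it ran from -0.81 to 0.47. These 14 are not the whole family, since the 12 serpins with reads in some libraries only and the 31 without reads did not enter.

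With exact zeros taken as values, 25 serpins entered and 0 were called by limma, 1 of them at an unadjusted p below 0.05, while 87 of 11021 genes (0.789%) were called in all.

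**Figure D5:**
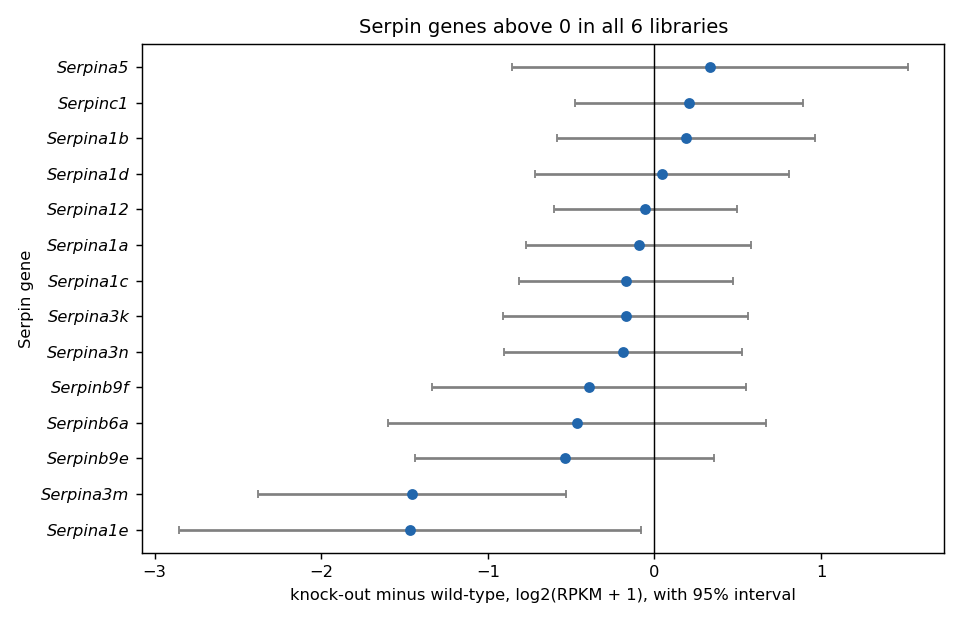
Knock-out minus wild-type difference on the log2(RPKM + 1) scale of the 14 serpin genes above 0 in all 6 libraries that average 1 RPKM or more, with its 95% interval from limma (3 libraries per group). The intervals of Serpina3m (-2.38 to -0.53) and Serpina1e (-2.86 to -0.08) lie below 0 before adjustment over all genes, and the other 12 include 0.

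The proteases that serpins inhibit, the factors that fold them and those that clear them were counted in the same fit. Of 35 target proteases, 15 were tested, 0 were called, and 12 differences were positive and 3 negative, with a median of 0.24. The 8 hepatocyte markers tested leaned alike, 7 positive and 1 negative with a median of 0.22, and the 7 macrophage markers tested were all negative, with a median of -1.38. Wild-type 1 had the lowest mean log2 level in the proteases above 0 throughout (4.77 against 4.98 to 5.40) and in the hepatocyte markers (8.37 against 8.77 to 9.12). Without it 9 proteases were positive and 6 negative, with a median of 0.05, and the hepatocyte median was 0.05 too. The macrophage markers stood at 4 positive and 3 negative without wild-type 1, with a median of 0.03. The part of the cell mixture in these lists was not tested. C1s1, the complement protease blocked by C1 inhibitor, had 177, 202 and 149 RPKM in the knock-out and 67.8, 132 and 130 in the wild-type. The difference was 0.73 (SE 0.30, unadjusted p = 0.0501 and adjusted p = 0.996 in limma). Its groups did not overlap, and 2.98% of all genes tested lay wholly higher in the knock-out. Masp1, a protease of the lectin pathway, had 3.92, 6.97 and 5.14 against 1.60, 4.38 and 3.79 RPKM, with overlap. Neutrophil elastase (Elane), cathepsin G (Ctsg), proteinase 3 (Prtn3) and both granzymes listed were among the 11 proteases at 0 in all 6 libraries.

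Of 27 genes of secretory folding and quality control, 13 were tested and 0 called, with 12 positive differences, 1 negative and a median of 0.11. The chaperones Calr (difference 0.30, SE 0.26) and Hsp90b1 (0.39, SE 0.38) had the smallest p-values. Of 24 genes of clearance, cofactors and transcriptional regulation, 7 were tested and 0 called, 4 positive and 3 negative, with a median of 0.01. The lowest p-values there were those of the regulators Foxa1 (0.32, SE 0.16) and Bcl6 (-0.40, SE 0.38). Of 24 acute phase genes 16 were tested and 0 called, 11 positive and 5 negative, with a median of 0.20. Apcs (-0.39, SE 0.19) and Saa4 (0.54, SE 0.27) came closest. Without wild-type 1 the acute phase genes stood at 8 positive and 8 negative, with a median of 0.02. With 1 library left out at a time, the median of the folding genes ran from 0.02 to 0.21. Their directions ran from 7 positive and 6 negative without wild-type 2 to 13 positive and 0 negative without wild-type 3. The median of the clearance genes ran from -0.20 to 0.26. The median over all genes tested was 0.00129, and 0 genes of any of these 4 lists were called with zeros kept. No list was tested as a set.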

How the data were processed

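Hepatocyte RNA of 3 knock-out and 3 wild-type samples was grouped and numbered by the sample titles. The deposited files list 118492 transcripts with their coordinates, each with a read count that is an estimate and with its RPKM. Per the submitters' processing notes, the authors aligned with TopHat2 (version 2) to GRCm38 (mm10). How reads were then divided among transcripts, and whether strand was used, was not given in the sources used here. In the deposited files 92.3% to 93.0% of the read totals of loci were even numbers, and the RPKM are scaled to library totals of 19245556 to 21899881 reads. RPKM is scaled to transcript length, so a gene's sum moves with the transcript to which reads were assigned. No file gives the depth behind an estimate beyond the reads themselves, and the number of libraries limits the precision.

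Reads and RPKM were summed per gene. Symbols matched 47993 genes, and 360 had none. Genes above 0 in all 6 libraries with a mean of at least 1 RPKM were fitted with limma 3.58.1 in R 4.3.3 (mean-variance trend, two-sided) on log2(RPKM + 1), which understates changes of low genes, and adjusted by Benjamini-Hochberg at 0.05. Sums over paralogs were compared by exact two-sided permutation. The fit was tested on simulated data with 200 changed genes. Sequences and biotypes came from GENCODE M21, in which 158 of the 165 serpin transcripts have the same position and length. The Serpind1 transcript with reads was not searched for shared windows.

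Named genes were those with a mean of at least 10 RPKM, those above 0 everywhere with a mean of at least 1 RPKM, and those with such a mean and an exact 0. The values of 1 member are not reported here, though it is part of the counts and sums. Other members were named after their values were seen, where few or of known liver function. In each list the 2 genes with the smallest p were named. The members, lists and tests were chosen with earlier results of these data known. Alternatives on pseudocount, filter, zeros, scaling, transcript choice, variance model, threshold, replicate block and left-out libraries were tried. The sums with Gm8893 and of Serpina3k with Serpina3m, left-out libraries with the filter on the other 5, and direction counts with a library left out, were added after seeing the data.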

Additional observations from a re-analysis of the deposited data

How the results depend on the processing

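No serpin was called under any setting tried. Over all genes 0 were called in every setting but 1, the fit with exact zeros kept as values, which called 87. The differences of Serpina3m (-1.85 to -1.23) and Serpina1e (-2.11 to -1.13) stayed negative with any library left out. Those of 9 other serpins changed sign: Serpina1a (-0.24 to 0.17), Serpina1b (-0.024 to 0.54), Serpina1c (-0.35 to 0.067), Serpina1d (-0.22 to 0.35), Serpina3k (-0.38 to 0.16), Serpina3n (-0.40 to 0.12), Serpina5 (-0.13 to 0.66), Serpina12 (-0.21 to 0.15) and Serpinb9f (-0.62 to 0.037). So did the sums of the Serpina1 (-0.33 to 0.14), Serpinb1 (-0.19 to 0.035), Serpinb6 (-0.91 to 0.0074) and Serpinb9 genes (-2.01 to 0.26), while that of the Serpina3 genes did not (-0.51 to -0.15). In reads scaled to library size alone, Serpinb6a turned to 0.074 and the Serpinb6 sum to 0.13, and with voom weights on the reads Serpinb6a was 0.074. These 2 settings use no transcript length. Samples with the same replicate number did not deviate together (correlations of -0.16, -0.05 and -0.0053), and with the replicate number as a block 0 genes and 0 serpins were called. Depth limits the low Serpinb9 paralogs and Serpinb1b, which rest on 4 to 132 reads per library. All of these counts are even numbers. Whether a read could count more than once was not given in the sources used here, so fewer reads may lie behind them.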
